A study of Mus musculus with 8 samples.

Results

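Activated fibro/adipogenic progenitors (FAPs) were examined in droplet single-cell RNA profiles of PDGFRα-sorted cells from mouse hindlimb muscle. They were taken as the barcodes with at least 2 unique molecular identifiers (UMIs, single captured RNA molecules) of Cthrc1, at least 3 of Postn and at most 1 of Tnmd, among barcodes with at least 500 genes, at most 10% mitochondrial UMIs and at least 1 Pdgfra UMI. This rule found 68 of 2968 filtered barcodes, 44 of 1435 in the dysferlin knockout (KO) matrix and 24 of 1533 in the wild type (WT) matrix. All other filtered barcodes, 1391 KO and 1509 WT, are called the other FAPs. The cells were thus chosen by their Cthrc1, Postn, Tnmd and Pdgfra counts, so their levels are given as a description and they are left out of all counts of genes.

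The KO mice carried the dysferlin defect on a strain written BLA/J in the sample labels and B6A/J in the protocol text, and the WT mice were C57BL/6. Both groups were 8-month-old females with no treatment named. Each group has 4 labelled samples but 1 pooled matrix, so a difference between the matrices has no replicate check, and genotype, strain and library cannot be told apart. No test was made, and all 95% intervals below cover counting error alone.

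FAPs are PDGFRα-positive stromal cells that lie between muscle fibres, lay down matrix after injury and can turn into adipocytes. Postn encodes periostin, a secreted matricellular protein that binds collagen and integrins and appears where fibroblasts remodel tissue. Cthrc1 encodes a secreted triple-helix protein of injured arteries and fibrotic tissue, and in lung and heart it marks the fibroblasts that make the most collagen. Tnmd encodes tenomodulin, a tendon cell marker, and its limit keeps tendon-type cells out. Dysferlin, whose loss was studied, repairs the muscle fibre membrane and is a fibre gene: Dysf had 1 UMI in the KO and 2 in the WT activated FAPs, too few to check the genotype.

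The activated FAPs were deeply sequenced barcodes. Their median total was 22138 UMIs in KO and 22145 UMIs in WT, against 12465 UMIs in the KO and 9028 UMIs in the WT other FAPs. Of the 44 KO activated FAPs 33 were among the 359 deepest KO barcodes, and of the 24 WT activated FAPs 22 were among the 384 deepest WT barcodes. They held 997718 UMIs in KO and 552242 UMIs in WT, so that 20 CPM (counts per 1000000 UMIs), the mean level required for a gene to be described, stood for 19.95 KO and 11.0 WT UMIs. Of the barcode sequences, 13 occurred in both matrices, and 1 of these was an activated FAP. Scrublet called 5 KO barcodes doublets, 1 of them an activated FAP, and 6 WT barcodes, none of them activated.

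Cthrc1 (chromosome 15, 39076932 to 39087121, plus strand, mm10) was a low-count gene in the KO activated FAPs and higher in the WT ones. Per barcode it had 2, 3 and 22 UMIs in KO (lowest, median, highest) and 2, 9 and 46 UMIs in WT. Summed over barcodes this was 207 CPM in the KO activated and 11.996 CPM in the KO other FAPs, and 514 CPM in the WT activated and 2.88 CPM in the WT other FAPs. Postn (chromosome 3, 54361109 to 54391037, plus strand) had 3, 41 and 300 UMIs per barcode in KO and 18, 133 and 302 UMIs in WT. Its summed level was 2302 CPM in the KO activated and 622 CPM in the KO other FAPs, and 5775 CPM in the WT activated and 136 CPM in the WT other FAPs. Postn was thus a common transcript of the KO other FAPs, seen in 58.3% of them, but was seen in 11.3% of the WT other FAPs. In barcodes with no Pdgfra UMI and with Pecam1 or Ptprc, endothelial and leukocyte genes, Cthrc1 was seen in 0 of 12 KO and 1 of 28 WT barcodes, and Postn in 6 of 12 KO and 4 of 28 WT barcodes. Their median totals were 9617.5 UMIs in KO and 5610.5 UMIs in WT.

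**Figure D1:**
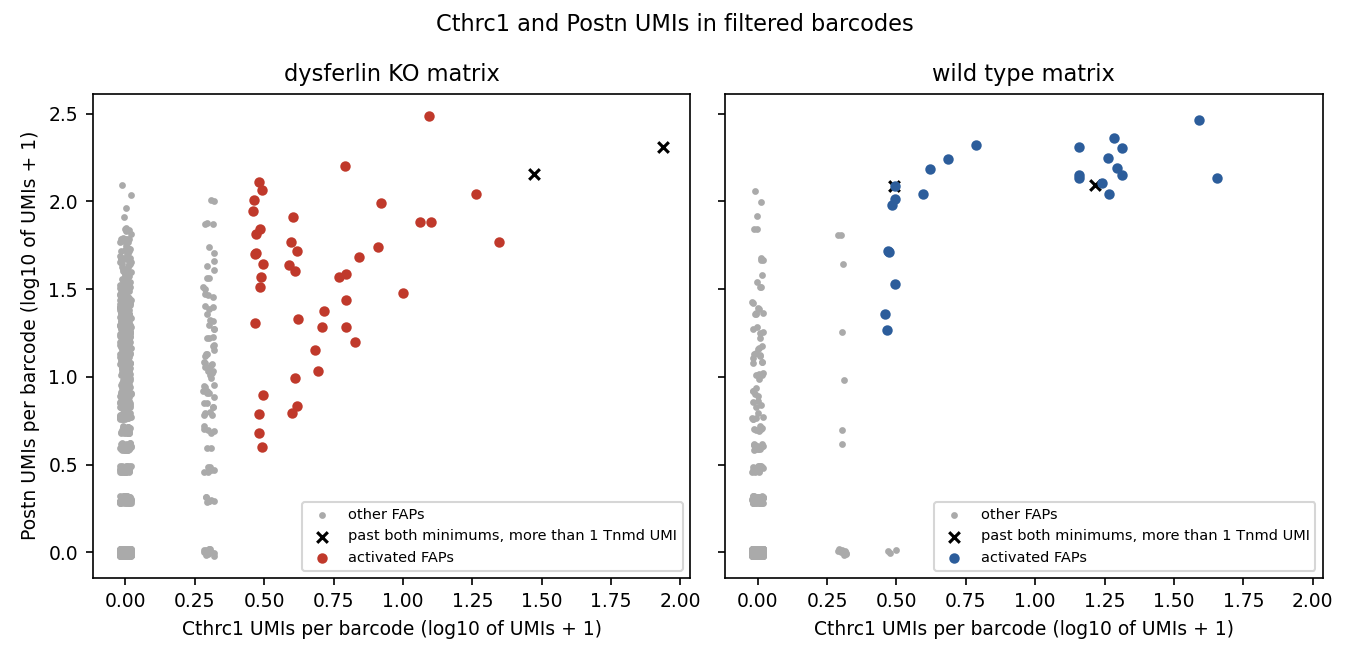
Cthrc1 UMIs (x axis) against Postn UMIs (y axis) in every filtered barcode, both as log10 of UMIs + 1 with small random offsets, KO left and WT right. Coloured points are activated FAPs, grey points other FAPs and crosses barcodes set aside for more than 1 Tnmd UMI. The KO activated FAPs lie at the edge of a Postn-positive cloud, with Cthrc1 mostly at 2 to 4 UMIs, while 12 of the 24 WT activated FAPs have at least 10 Cthrc1 UMIs.

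Near the thresholds the matrices were unlike. Just inside, 16 KO and 8 WT barcodes had exactly 2 Cthrc1 UMIs. Just outside, with 1 Cthrc1 UMI and at least 3 Postn UMIs, lay 65 KO and 6 WT barcodes. In KO no barcode had at least 2 Cthrc1 UMIs with fewer than 3 Postn UMIs, and in WT 3 barcodes did. At least 5 Cthrc1 UMIs were found in 15 KO and 13 WT activated FAPs, and at least 10 in 5 KO and 12 WT activated FAPs. More than 1 Tnmd UMI kept out 2 KO and 2 WT barcodes.

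Activated FAPs made up 3.07% of the filtered KO barcodes (exact Clopper-Pearson interval 2.24% to 4.09%) and 1.57% of the WT barcodes (1.01% to 2.32%). The difference of 1.50 percentage points did not keep its direction at equal depth. Barcodes with at least 5000 UMIs were thinned to 5000, and shallower ones were left out. Of the thinned barcodes, 11 of 1263 in KO (0.871%) and 15 of 1234 in WT (1.22%) met the rule, and the difference was -0.34 points. At the looser limit of 1 UMI each, 8.50% of KO and 1.96% of WT barcodes qualified. With at least 5 Cthrc1 UMIs the shares were 1.05% in KO and 0.848% in WT. No order of the matrices was therefore read from the share.

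**Figure D2:**
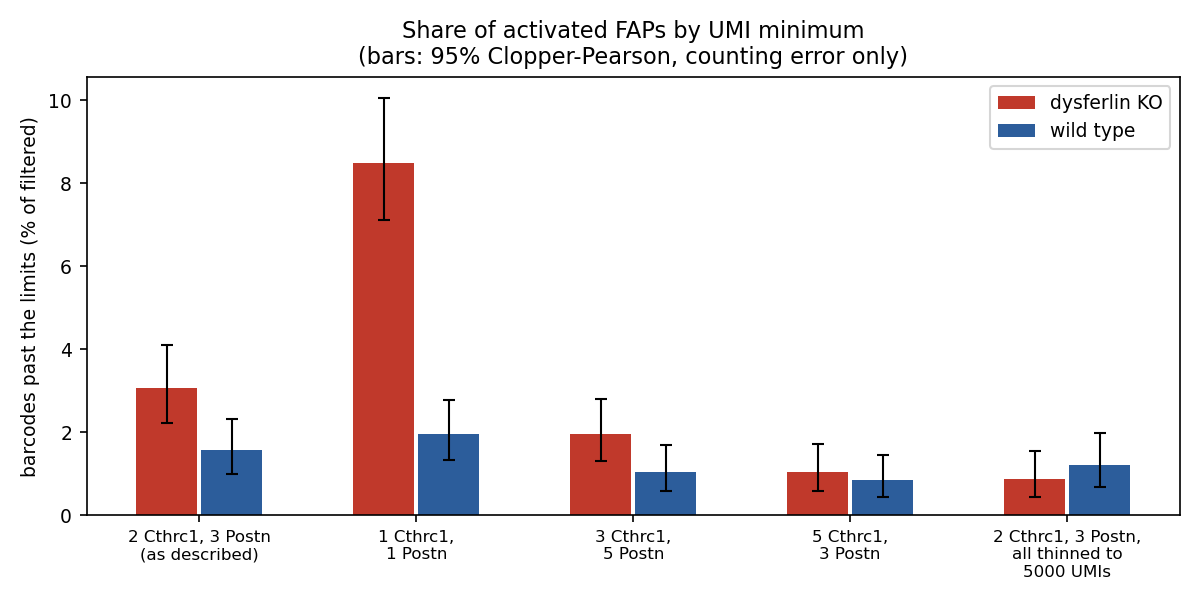
Share of filtered barcodes that met the rule (y axis, percent), for 5 settings of the UMI minimums (x axis), KO bar left of WT bar. Error bars are 95% Clopper-Pearson intervals for counting error. KO stands above WT at 3.07% and 1.57% as described. It stands below WT at 0.871% and 1.22% once barcodes were thinned to 5000 UMIs, with shallower barcodes left out.

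The label of stromal cell held for both matrices. The 9 FAP markers fixed for the check (such as Dcn, Lum and Cd34) were all seen in the activated FAPs of each matrix, and summed to 59867 CPM in KO and 71291 CPM in WT activated FAPs, against 56333 CPM in KO and 61750 CPM in WT other FAPs. The higher sum lay with the collagens, Mfap5 and, in WT, Lum, while Gsn was at least 1.5-fold lower in both matrices and Dcn, Cd34 and Ly6a in WT. Pdgfra, left out of the 9 because barcodes were filtered on it, was also lower. It was at 336 CPM in the KO activated and 498 CPM in the KO other FAPs. In WT it was at 243 CPM in the activated and 504 CPM in the other FAPs. Of the 7 tenocyte markers, Kera, Chad, Scx and Mkx had no UMI in the KO activated FAPs, and Kera, Chad and Mkx none in the WT ones. Their sum was nevertheless 2726 CPM in KO and 3750 CPM in WT activated FAPs, against 917 CPM in KO and 543 CPM in WT other FAPs, nearly all of it Thbs4, which encodes a thrombospondin of tendon and muscle matrix. The adipocyte list was at 0 in the activated FAPs of both matrices, and the T or NK list at 0 in KO and at 1 UMI in WT. Endothelial markers (12.03 CPM in KO, 10.9 CPM in WT) and macrophage markers (9.02 CPM in KO, 5.43 CPM in WT) were near 0, with Cdh5, Ptprc and Adgre1 unseen in both. Mural markers stood at 34.1 CPM in KO and 27.2 CPM in WT activated FAPs, below the 49.0 CPM of the KO and 42.9 CPM of the WT other FAPs. Of the satellite cell list only Vcam1, which FAPs can express, was seen, and Pax7 and Myod1 had no UMI.

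Promoters are shown for Postn, which defines the cells, and for Tnc, Timp1 and Thbs4, matrix genes that stood above the other FAPs in both matrices. Each is 300 bases from RefSeq (GRCm38.p6), from 250 bases before to 50 after a start, written 5′ to 3′ on the gene's strand, and Postn and Tnc have 2 starts each, of which 1 is shown. Capitals mark the letters of short motifs, searched on both strands: TATAAA for a TATA box, CATTCC for TEAD factors and CAGACA for SMAD factors, the last of which reads TGTCTG on the other strand.
Postn, chr3:54360857-54361156, plus strand: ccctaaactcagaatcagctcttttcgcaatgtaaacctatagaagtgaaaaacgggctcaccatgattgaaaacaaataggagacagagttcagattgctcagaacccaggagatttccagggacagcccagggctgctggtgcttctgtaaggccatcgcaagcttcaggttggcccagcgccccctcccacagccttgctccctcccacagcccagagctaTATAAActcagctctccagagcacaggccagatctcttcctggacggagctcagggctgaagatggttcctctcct
Tnc, chr4:64046966-64047265, minus strand: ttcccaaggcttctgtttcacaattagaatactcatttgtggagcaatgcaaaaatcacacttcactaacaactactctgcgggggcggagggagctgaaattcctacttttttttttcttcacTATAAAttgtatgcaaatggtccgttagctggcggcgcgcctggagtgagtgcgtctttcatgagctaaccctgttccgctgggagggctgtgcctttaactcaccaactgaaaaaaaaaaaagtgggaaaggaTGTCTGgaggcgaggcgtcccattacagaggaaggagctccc
Timp1, chrX:20869916-20870215, plus strand: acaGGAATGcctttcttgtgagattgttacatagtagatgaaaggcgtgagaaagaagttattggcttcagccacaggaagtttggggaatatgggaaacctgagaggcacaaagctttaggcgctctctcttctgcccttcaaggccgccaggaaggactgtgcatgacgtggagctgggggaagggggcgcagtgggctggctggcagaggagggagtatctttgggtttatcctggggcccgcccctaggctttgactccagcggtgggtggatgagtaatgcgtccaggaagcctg
Thbs4, chr13:92794769-92795068, minus strand: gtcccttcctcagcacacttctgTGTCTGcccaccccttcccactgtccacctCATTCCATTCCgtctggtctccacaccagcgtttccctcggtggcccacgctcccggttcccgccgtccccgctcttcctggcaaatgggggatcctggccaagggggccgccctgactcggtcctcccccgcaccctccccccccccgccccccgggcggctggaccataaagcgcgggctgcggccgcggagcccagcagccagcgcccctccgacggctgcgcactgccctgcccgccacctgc
The TATAAA of Postn lies 26 to 21 bases before the start shown, and the promoter of its other start holds none of the searched motifs. Thbs4 holds CATTCC in 2 overlapping copies, and Timp1 holds it once on the opposite strand. TATAAA is found in 13.6% of all 32851 RefSeq promoters of this length, CATTCC in 14.7% and CAGACA in 21.0%. Among the 10 genes named here as high in both matrices that have an entry, with Postn counted, TATAAA occurs in 3, CATTCC in 2, CAGACA in 2, the RUNX letters TGTGGT (16.8% of all promoters) in 1 and the AP-1 letters TGACTCA (5.20%) in 0. A gene was counted if the promoter of any of its starts held the letters, whereas the shares are per promoter. Postn, Meg3 and Tnc, the genes with TATAAA, have 2 starts each, so the counts and shares are not like for like. These matches describe letters and not bound sites.

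The activated FAPs were next set against the other FAPs of their own matrix, over genes with a mean of at least 20 CPM. A gene under 20 CPM in the other FAPs met this minimum through the activated FAPs alone and could only be higher there. In both matrices this holds for genes such as Ltbp2, Wisp1, Ptn, Ass1, Mirg, P4ha3, Adam12 and Fmod. In WT it also holds for genes such as Tnc, Tagln and Acta2. Likewise a gene under 20 CPM in the activated FAPs, such as Inmt, could only be lower. By a 2-fold limit, 84 of 6024 KO genes (1.39%) were higher in the activated FAPs and 58 (0.963%) were lower. By the same limit 256 of 5723 WT genes (4.47%) were higher and 430 (7.51%) lower. Both matrices shared 21 of the higher genes (0.385% of the 5450 measured in both), which were 25% of the KO set and 8.20% of the WT set. They shared 38 of the lower genes (0.697%), which were 65.5% of the KO set and 8.84% of the WT set. By a 1.5-fold limit, 86 genes (1.58%) were higher and 166 (3.05%) lower in both. By that limit 4.86% of KO genes were higher and 4.76% lower, and 12.4% of WT genes were higher and 17.6% lower. The list counts below stand beside these shares. The median log2 ratio over all genes was 0.02 in KO and -0.03 in WT. The depth of the activated FAPs differs from that of the other FAPs. Against other FAPs matched on total UMIs, the count of genes lower in KO moved past 1.5 times and is given at the end. The other 3 of these 2-fold counts stayed within 1.5 times. Single genes moved more: of the named-gene ratios, 66 stayed within their counting interval, 69 moved and 5 of at least 2-fold changed direction. The matched sets hold 44 KO and 24 WT barcodes. Many gene ratios below thus depend on the depth of the other FAPs.

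**Figure D3:**
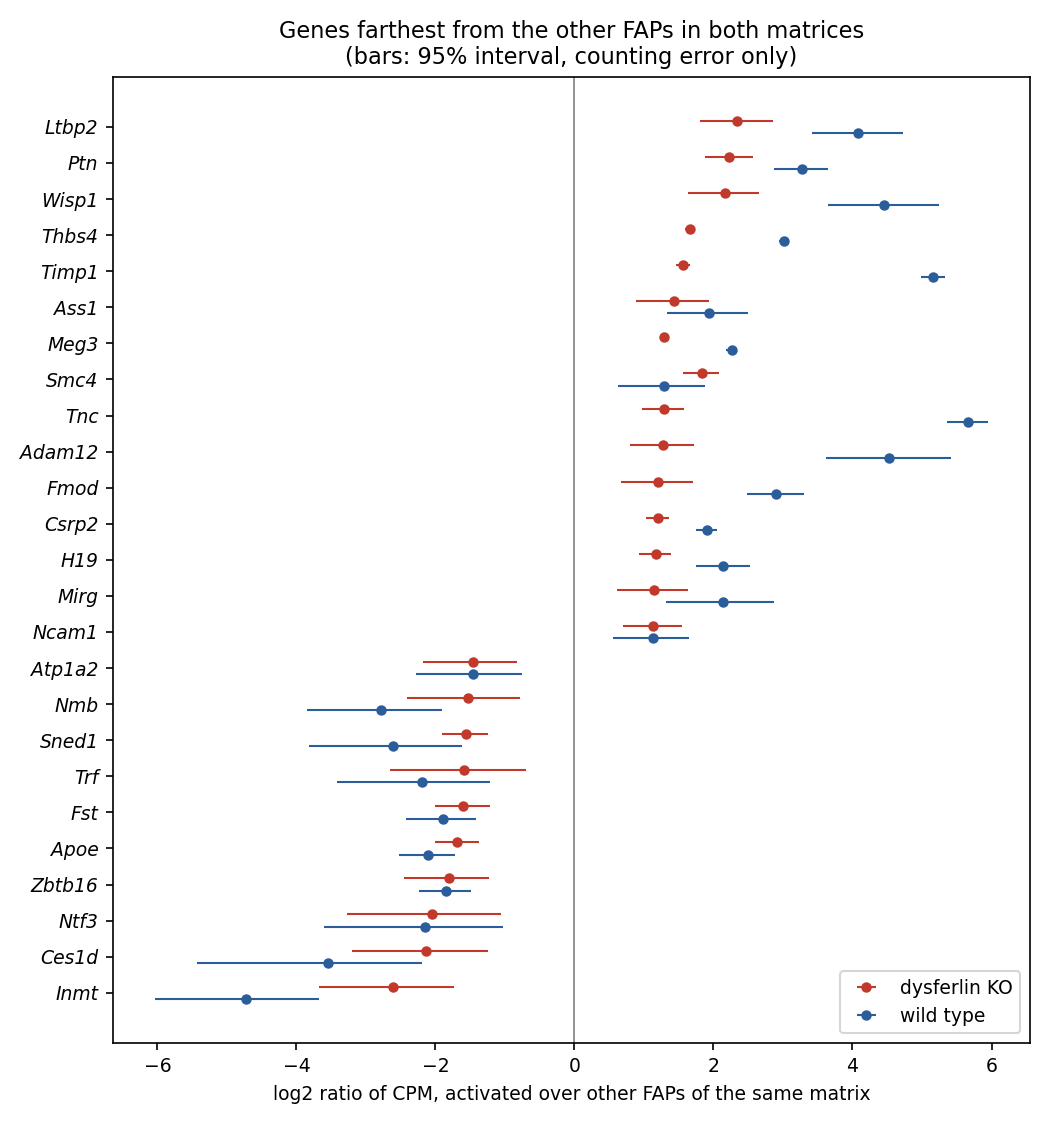
Log2 ratio of CPM, activated over other FAPs of the same matrix (x axis), for the 15 highest and 10 lowest genes of both matrices, ordered by the smaller of the 2 ratios. KO points lie above WT points within a gene, and lines are 95% intervals for counting error. For Tnc and Timp1 the WT point lies far to the right of the KO point (1.28 in KO and 5.66 in WT for Tnc), while Ncam1 and Zbtb16 have nearly the same ratio in both.

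Fibrillar collagens, the tensile fibres of scar and interstitium, were higher in activated FAPs. Of 8 listed genes 7 were measured, 4 were at least 1.5-fold higher in KO (4.86% of all genes there) and 5 in WT (12.4% of all genes), and none was lower by that size. The list's median log2 ratio was 0.68 in KO and 2.08 in WT. Col1a1, the main chain of type I collagen, was at 8195 CPM in the KO activated and 4295 CPM in the KO other FAPs (log2 ratio 0.93, interval 0.90 to 0.96), and at 11730 CPM in the WT activated and 1898 CPM in the WT other FAPs (2.63, 2.59 to 2.67). Per barcode, in UMIs per 10000, Col1a1 ran from 6.96 through a median of 70.5 to 277 in KO and from 45.4 through 109 to 330 in WT activated FAPs. The median of the other FAPs was 31.7 in KO and 12.9 in WT. All 24 WT activated FAPs exceeded the 90th percentile of the WT other FAPs for Col1a1 and also for Col3a1, whereas 19 of 44 KO activated FAPs did so for Col1a1 and 16 of 44 for Col3a1 in their matrix. Col3a1, the type III chain, was at 17974 CPM in the KO activated and 10576 CPM in the KO other FAPs (0.77, 0.74 to 0.79), and at 21407 CPM in the WT activated and 3678 CPM in the WT other FAPs (2.54, 2.51 to 2.57).

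KO over WT, the fibrillar list had a median log2 ratio of -0.25 in activated FAPs, where 2 of 7 genes were at least 1.5-fold higher and 1 lower, and 1.01 in other FAPs, where 6 of 7 were higher. Of the other interstitial collagens, 3 of 7 measured genes were at least 1.5-fold higher in KO and 7 of 8 in WT activated FAPs over other FAPs. KO over WT, 4 of 8 were lower and 1 higher in activated FAPs, and 3 of 7 were higher in other FAPs. Of the 7 that reached the minimum in both activated sets, 3 were lower and 1 higher. At 1.5-fold, KO over WT, 18.7% of all genes were higher and 7.78% lower in activated FAPs. In other FAPs 5.24% were higher and 3.65% lower. Col8a1, a short-chain collagen of vessel walls and injured tissue, was at 466 CPM in the KO activated and 294 CPM in the KO other FAPs, and at 1465 CPM in the WT activated and 177 CPM in the WT other FAPs. Col12a1, which decorates collagen fibres under load, was 1.91-fold higher in KO and 6.65-fold higher in WT, but a single WT barcode gave 46.5% of its WT UMIs.

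**Figure D4:**
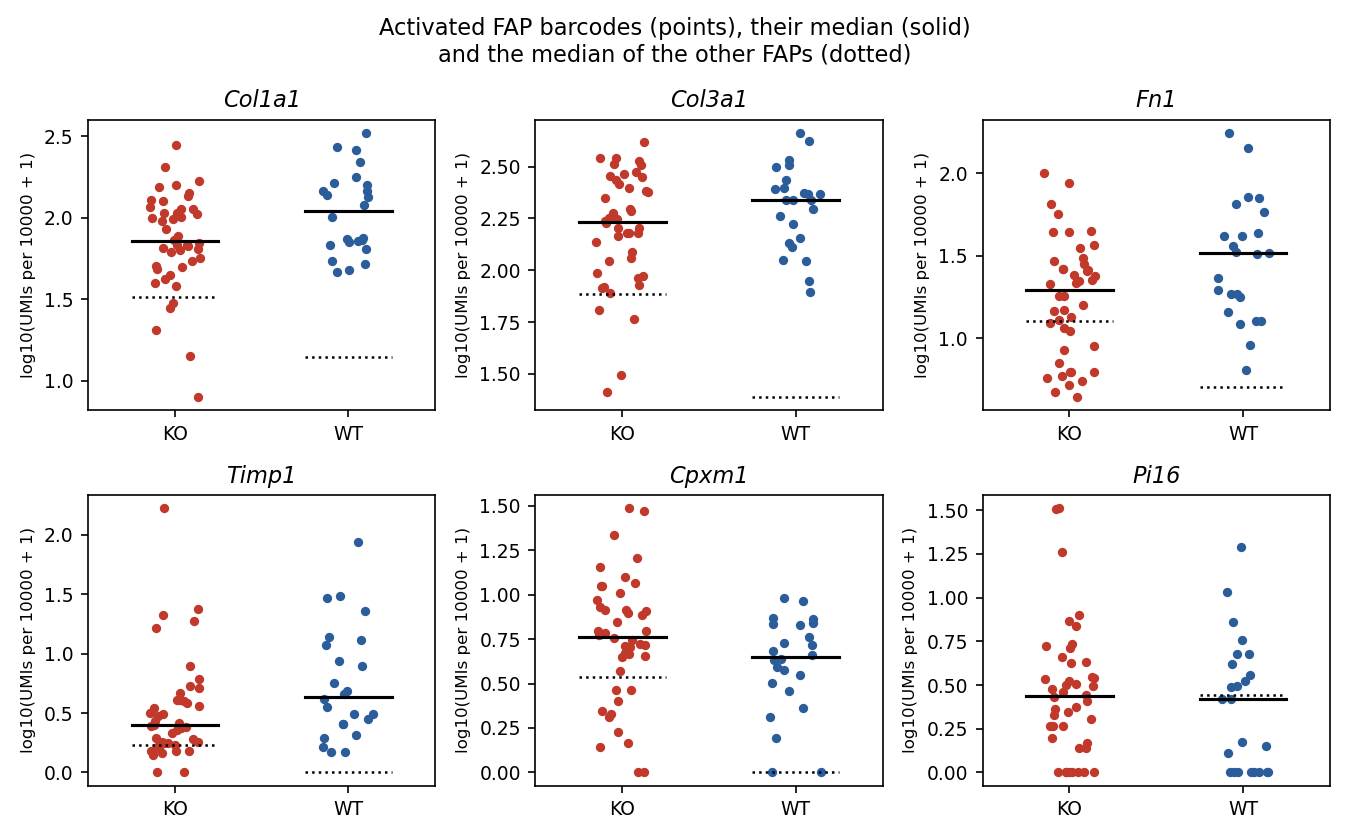
UMIs per 10000 in each activated FAP (points; y axis log10 of the value + 1) for 6 genes, KO left and WT right in each panel. Solid lines are the medians of the activated FAPs and dotted lines those of the other FAPs. The WT points of Col1a1 and Col3a1 all lie above the dotted WT line, and in Timp1 a single KO point at 166 stands far above the KO median of 1.49.

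Among matricellular genes, the list as a whole did not move to 1 side: 4 of 17 measured genes were at least 1.5-fold higher and 3 lower in KO, and 6 were higher and 4 lower in WT. Tnc, which encodes tenascin-C, an adhesion-modulating protein of healing wounds, was at 102 CPM in the KO activated and 42.0 CPM in the KO other FAPs (log2 ratio 1.28, interval 0.97 to 1.58). In WT it was at 534 CPM in the activated and 10.6 CPM in the other FAPs (5.66, 5.36 to 5.95). It was seen in 18 of 44 KO and 15 of 24 WT activated FAPs. The KO difference depended on depth and on a single barcode: it was -0.20 against other FAPs of matched depth and 0.71 without the barcode that held 35.3% of the Tnc UMIs. Wisp1, a CCN family protein induced by Wnt signalling, was 4.47-fold higher in KO (log2 2.16, interval 1.63 to 2.66) and 21.9-fold higher in WT (4.45, 3.65 to 5.24), from 41 KO and 27 WT UMIs. Sparc, a collagen-binding glycoprotein, was at 11592 CPM in the KO activated and 6467 CPM in the KO other FAPs, and at 13927 CPM in the WT activated and 3188 CPM in the WT other FAPs. Thbs4 was at 2669 CPM in the KO activated and 847 CPM in the KO other FAPs (1.66, 1.60 to 1.72), and at 3616 CPM in the WT activated and 447 CPM in the WT other FAPs (3.02, 2.94 to 3.09). Per barcode it ran from 0 through a median of 24.4 to 109 UMIs per 10000 in KO and from 0 through 26.6 to 117 in WT activated FAPs. Nov, a further CCN protein, was lower in both matrices, though not against KO other FAPs of matched depth (log2 ratio 0.11). Fbln1, a basement membrane fibulin, was lower in both, at 78.2 CPM in the KO activated and 154 CPM in the KO other FAPs and at 57.9 CPM in the WT activated and 272 CPM in the WT other FAPs.

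Ctgf and Cyr61, CCN genes that respond to YAP and TEAD activity, went different ways. Ctgf was at 386 CPM in the KO activated and 362 CPM in the KO other FAPs, and at 963 CPM in the WT activated and 315 CPM in the WT other FAPs. Cyr61 was at 480 CPM in the KO activated and 285 CPM in the KO other FAPs, and at 88.7 CPM in the WT activated and 240 CPM in the WT other FAPs.

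Of the small leucine-rich proteoglycans, which set collagen fibre width, Bgn (biglycan) and Aspn (asporin) were higher in both matrices. Aspn was at 727 CPM in the KO activated and 362 CPM in the KO other FAPs, and at 1583 CPM in the WT activated and 362 CPM in the WT other FAPs. Fmod, fibromodulin, was 2.31-fold higher in KO and 7.45-fold higher in WT, but 86.2% of its WT UMIs came from a single barcode, and without it the WT log2 ratio was 0.08. Decorin (Dcn), the most abundant member, was lower, at 10581 CPM in the KO activated and 14035 CPM in the KO other FAPs and at 11343 CPM in the WT activated and 19216 CPM in the WT other FAPs. Elastic fibre genes had 1 of 9 measured members higher and 2 lower in KO, and 6 higher and 2 lower in WT, at 1.5-fold. Mfap5, a microfibril protein, was 1.51-fold higher in KO and 3.03-fold higher in WT.

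Enzymes that fold, hydroxylate and crosslink collagen were higher in WT activated FAPs in 12 of 21 measured genes and in KO in 1 of 21, at 1.5-fold, with 1 lower in each. P4ha3, a prolyl hydroxylase subunit, was the member higher in both (28.1 CPM in the KO activated and 13.2 CPM in the KO other FAPs; 43.5 CPM in the WT activated and 2.88 CPM in the WT other FAPs), and Pcolce2, a procollagen proteinase enhancer, the member lower in both. Lox, lysyl oxidase, which crosslinks collagen and elastin, was at 139 CPM in the KO activated and 147 CPM in the KO other FAPs (log2 ratio -0.08, interval -0.34 to 0.16), and at 641 CPM in the WT activated and 74.1 CPM in the WT other FAPs (3.11, 2.93 to 3.29). Lox was seen in all 24 WT and in 33 of 44 KO activated FAPs.

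Proteases and their inhibitors gave 6 of 17 measured genes higher and 2 lower in KO, and 7 of 16 higher and 4 lower in WT, at 1.5-fold, beside 4.86% of all genes higher and 4.76% lower in KO and 12.4% higher and 17.6% lower in WT. Timp1, which inhibits matrix metalloproteinases, was at 1024 CPM in the KO activated and 347 CPM in the KO other FAPs (log2 ratio 1.56, interval 1.47 to 1.66), and at 1197 CPM in the WT activated and 33.5 CPM in the WT other FAPs (5.16, 4.99 to 5.34). A single KO barcode held 64.7% of the KO Timp1 UMIs, and without it the KO ratio was 0.12. A WT barcode held 40.1%, and the WT ratio without it was 4.50. Adam12, a membrane metalloproteinase of activated stromal cells, was 2.41-fold higher in KO and 23.0-fold higher in WT. Ctsk, cathepsin K, which cuts collagen, was at 443 CPM in the KO activated and 278 CPM in the KO other FAPs, and at 487 CPM in the WT activated and 141 CPM in the WT other FAPs. Timp3 was lower in both, at 259.6 CPM in the KO activated and 468 CPM in the KO other FAPs and at 168 CPM in the WT activated and 701 CPM in the WT other FAPs.

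Contractile genes of myofibroblasts summed to 2841 CPM in KO and 3520.2 CPM in WT activated FAPs, against 2508 CPM in KO and 2232 CPM in WT other FAPs. In WT, 9 of 14 measured genes were at least 1.5-fold higher and none lower, and in KO 1 of 12 was higher and 1 lower. Of the 11 that reached the minimum in both WT sets, 6 were higher and none lower, and the other 3 reached it in 1 set alone. By that size 12.4% of all WT genes were higher and 17.6% lower. In KO 4.86% of all genes were higher and 4.76% lower. The smooth muscle members Acta2 and Tagln were at low counts. Acta2, smooth muscle actin, was seen in 4 of 44 KO and 6 of 24 WT activated FAPs, against 7.19% of the KO and 2.52% of the WT other FAPs. Its 24 WT UMIs included 10 from a single barcode. Tagln, transgelin, was at 19.0 CPM in the KO activated and 10.1 CPM in the KO other FAPs, and at 90.5 CPM in the WT activated and 3.61 CPM in the WT other FAPs, but 94.7% of its KO and 70% of its WT UMIs came from a single barcode each. In all but 4 KO and 6 WT activated FAPs the smooth muscle actin transcript was not detected at this depth.

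Of the TGF-beta ligands, receptors and binding proteins, 2 of 17 measured were at least 1.5-fold higher and 3 lower in KO, and 4 of 16 were higher and 5 lower in WT, where 12.4% of all genes were higher and 17.6% lower. Ltbp2, a latent TGF-beta binding protein family member of elastic fibres, led the genes higher in both matrices: 41.1 CPM in the KO activated and 8.09 CPM in the KO other FAPs (log2 2.34, interval 1.81 to 2.85), and 63.4 CPM in the WT activated and 3.75 CPM in the WT other FAPs (4.08, 3.42 to 4.72). It was seen in 6 of 44 KO activated FAPs, with 41.5% of the UMIs in a single barcode, and in 11 of 24 WT activated FAPs. In both matrices Ltbp2 met the CPM minimum through the activated FAPs alone and could only be higher there. Among KO barcodes with at least 3 Postn UMIs, Ltbp2 was at 9.25 CPM with 0 Cthrc1 UMIs and 15.4 CPM with 1. It was at 4.93 CPM with 2 to 4 Cthrc1 UMIs and 97.7 CPM with at least 5. Ltbp1 and Ltbp4, which store latent TGF-beta in the matrix, were lower in both matrices, Ltbp4 at 273 CPM in the KO activated and 419 CPM in the KO other FAPs and at 366 CPM in the WT activated and 643 CPM in the WT other FAPs. The ligands Tgfb1 and Tgfb3 were higher in WT, with Tgfb3 at 114 CPM in the activated and 40.7 CPM in the other FAPs, and Tgfb3 stood at 36.1 CPM in the KO activated and 46.1 CPM in the KO other FAPs.

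The growth factors Ptn and Mdk, pleiotrophin and midkine, are the 2 members of a heparin-binding family. Mdk was at 156 CPM in the KO activated and 100.3 CPM in the KO other FAPs and at 119.5 CPM in the WT activated and 57.1 CPM in the WT other FAPs, but its KO log2 ratio of 0.64 was -0.11 under the stricter limits and -0.38 with at least 5 Cthrc1 UMIs. Ptn was at 91.2 CPM in the KO activated and 19.5 CPM in the KO other FAPs (log2 2.23, interval 1.88 to 2.56), and at 143 CPM in the WT activated and 14.9 CPM in the WT other FAPs (3.27, 2.87 to 3.65). Against other FAPs of matched depth the Ptn ratio was 0.16 in KO and 1.55 in WT. Fst, follistatin, which blocks activins and myostatin, was lower in both, at 55.1 CPM in the KO activated and 167 CPM in the KO other FAPs (-1.60, -2.01 to -1.21) and at 61.6 CPM in the WT activated and 229 CPM in the WT other FAPs (-1.90, -2.43 to -1.41). The Wnt inhibitor Sfrp1 was lower in both, with log2 ratios of -1.17 in KO and -0.87 in WT, the WT ratio turning to 0.15 under the looser limits. Dkk2, also a Wnt regulator, had log2 ratios of -0.62 in KO and -2.77 in WT, but the KO ratio was 0.91 against other FAPs of matched depth and 0.28 with at least 5 Cthrc1 UMIs, and all 7 WT UMIs came from 1 barcode. Sfrp2 had no UMI in the WT activated FAPs, against 91.7 CPM in the WT other FAPs, and stood at 131 CPM in the KO activated and 156 CPM in the KO other FAPs, with 55.7% of the KO activated UMIs in a single barcode. A count of 0 in the WT activated FAPs allows up to 5.43 CPM.

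The imprinted noncoding RNAs Meg3, Mirg and H19 stood among the shared higher genes, but no list of imprinted genes was counted. Peg10, also imprinted, was higher in KO and lower in WT, from 1 WT UMI. Meg3 and Mirg come from the same imprinted cluster on chromosome 12, and H19 lies beside Igf2 on chromosome 7. Meg3 was at 2592 CPM in the KO activated and 1061 CPM in the KO other FAPs (log2 1.29, interval 1.23 to 1.35), and at 2823 CPM in the WT activated and 589 CPM in the WT other FAPs (2.26, 2.18 to 2.34). Of the WT activated FAPs 22 of 24 exceeded the 90th percentile of the WT other FAPs for Meg3, and 11 of 44 KO activated FAPs did so in KO. H19 was 2.25-fold higher in KO and 4.42-fold higher in WT, and Mirg 2.20-fold and 4.39-fold. Csrp2, a LIM protein of smooth muscle and stellate cells, was 2.29-fold higher in KO and 3.74-fold higher in WT. Ass1, the arginine-making enzyme argininosuccinate synthase, was 2.70-fold and 3.84-fold higher, with 41.7% of the KO and 33.3% of the WT UMIs in a single barcode each. Ncam1, a neural adhesion molecule, was 2.20-fold higher in KO and 2.19-fold in WT, but it reversed against WT other FAPs of matched depth (log2 -0.10), and in KO without cycling cells (-0.20) and after thinning (-0.40).

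Genes of resting FAP states were mostly lower in WT and lower in part in KO. A progenitor list led by Dpp4, Pi16 and Cd55 had 12 of 12 measured genes at least 1.5-fold lower in WT (17.6% of all genes were lower by that size) and 4 of 12 in KO (4.76%), with none higher. Dpp4 and Cd55 were not among the 4 lower in KO. Pi16, a secreted marker of adventitial fibroblasts, was at 349 CPM in the KO activated and 599 CPM in the KO other FAPs, and at 328 CPM in the WT activated and 789 CPM in the WT other FAPs. Ly6a, the Sca-1 surface protein of the FAP sort in many studies, was at 1500.4 CPM in the KO activated and 1836 CPM in the KO other FAPs, and at 739 CPM in the WT activated and 1426 CPM in the WT other FAPs. An interstitial list led by Hsd11b1, Inmt and Apod had 5 of 10 lower and none higher in KO, and 10 of 11 lower and 1 higher in WT. Inmt, a methyltransferase, led the genes lower in both matrices, with 9 of its 10 KO UMIs in a single barcode, at 10.0 CPM in the KO activated and 61.5 CPM in the KO other FAPs (log2 -2.62, interval -3.68 to -1.73) and at 12.7 CPM in the WT activated and 335 CPM in the WT other FAPs (-4.72, -6.04 to -3.68). Apod, apolipoprotein D, was at 792 CPM in the KO activated and 1704 CPM in the KO other FAPs, and at 217 CPM in the WT activated and 1552 CPM in the WT other FAPs.

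Gsn, the actin-severing protein gelsolin and a FAP marker, was lower in the activated FAPs of both matrices, at 6844 CPM in KO activated and 15898 CPM in KO other FAPs and at 6551 CPM in WT activated and 29096 CPM in WT other FAPs. No activated FAP of either matrix exceeded the 90th percentile of its other FAPs for Gsn. At 1.5-fold, 4.76% of all genes were lower in KO and 17.6% in WT. Complement genes had 5 of 9 measured members lower in KO and 7 of 9 in WT, with none higher. C3, the central complement protein, was at 925 CPM in the KO activated and 2188 CPM in the KO other FAPs, and at 268 CPM in the WT activated and 1397 CPM in the WT other FAPs. Adipogenic regulators had 3 of 8 lower in KO and 5 of 8 in WT, with none higher. Apoe, the lipid carrier, was at 85.2 CPM in the KO activated and 274 CPM in the KO other FAPs, and at 96.0 CPM in the WT activated and 415 CPM in the WT other FAPs. Glucocorticoid-induced genes had 8 of 10 lower in KO and 9 of 10 in WT. Zbtb16, a zinc finger repressor of that list, had nearly the same log2 ratio in KO (-1.80, interval -2.45 to -1.23) and in WT (-1.85, -2.24 to -1.49), although it was at 24.1 CPM in the KO activated and 84.0 CPM in the KO other FAPs, and at 111 CPM in the WT activated and 398 CPM in the WT other FAPs.

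Immediate early genes, transcription factors and feedback regulators switched on within minutes of a stimulus and by tissue dissociation, separated the matrices. In WT all 17 measured of 18 listed genes were at least 2-fold lower in the activated FAPs, with a median log2 ratio of -2.94. By 2-fold, 7.51% of all WT genes were lower. Of the 17 genes, 13 reached the minimum in both WT sets, all of them lower, and the other 4 reached it in 1 set alone. In KO 1 of 17 was at least 1.5-fold higher and 4 lower, with a median of -0.09. By that size 4.86% of all KO genes were higher and 4.76% lower. Summed over the list, the activated FAPs held 6633 CPM in KO and 2108 CPM in WT, and the other FAPs 7126 CPM in KO and 12309 CPM in WT. Fos was at 808 CPM in the KO activated and 862 CPM in the KO other FAPs (-0.09, -0.20 to 0.01), and at 138 CPM in the WT activated and 1442 CPM in the WT other FAPs (-3.39, -3.73 to -3.06). Egr1 and Jun had the same layout, Jun at 1316 CPM in the KO activated and 1379 CPM in the KO other FAPs and at 270 CPM in the WT activated and 1971 CPM in the WT other FAPs. Per barcode, Fos ran from 0 through a median of 1.37 to 60.1 UMIs per 10000 in KO and from 0 through 0 to 8.55 in WT activated FAPs. The part of tissue handling in these genes was not tested.

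**Figure D5:**
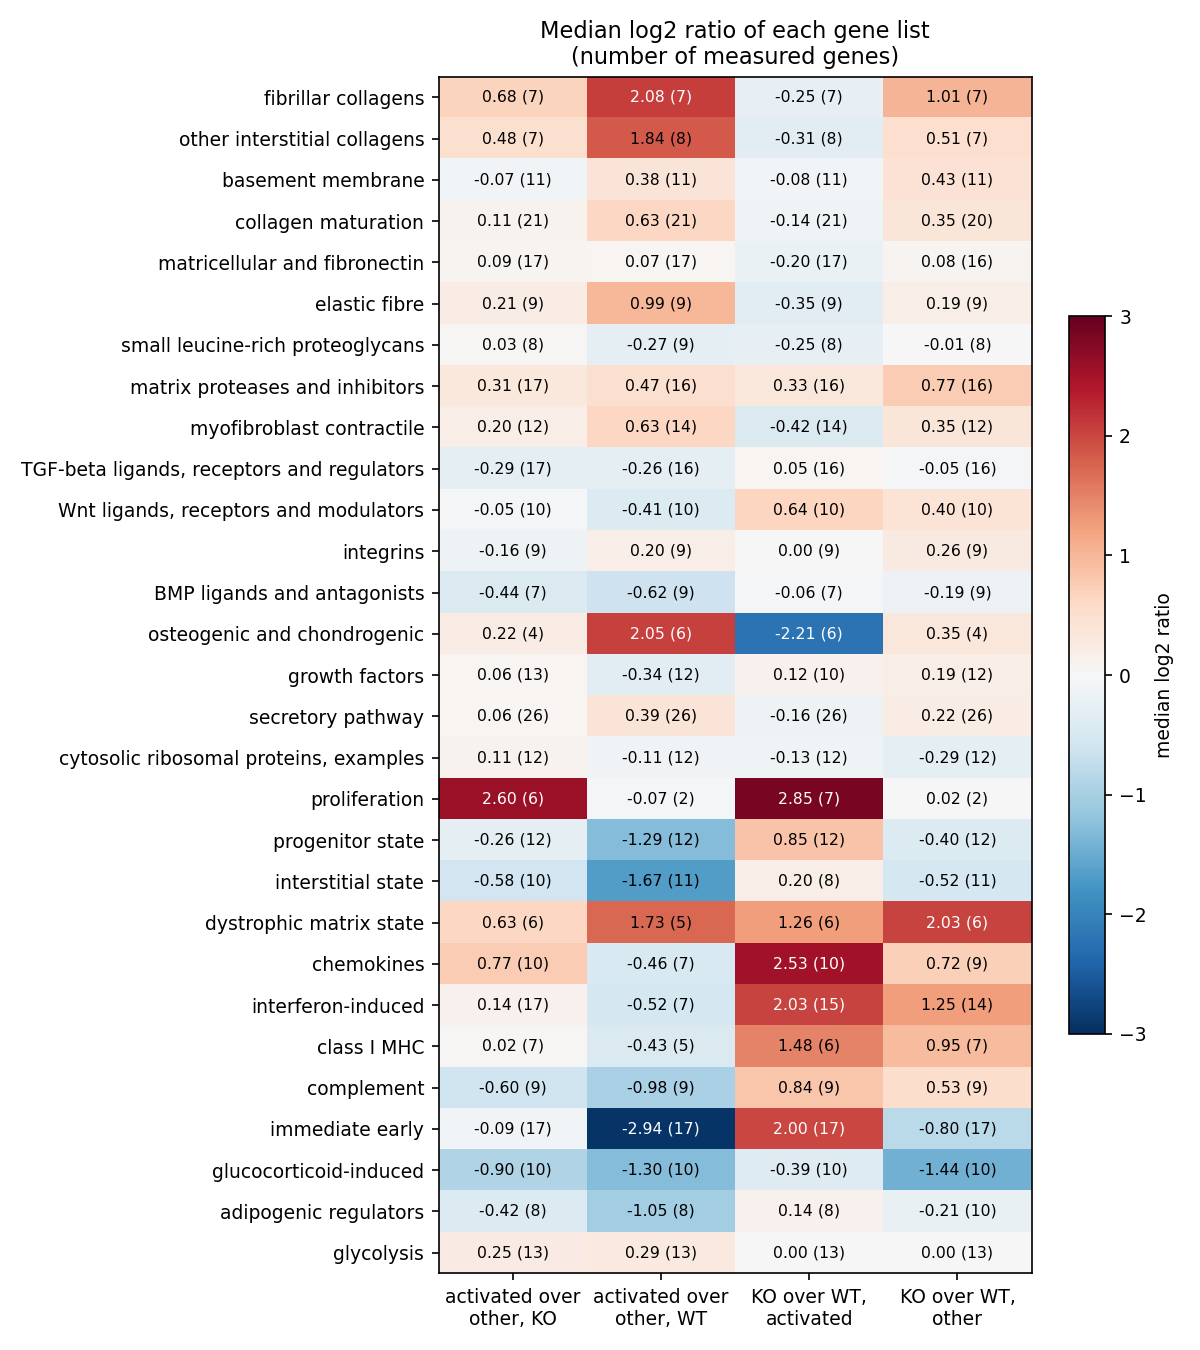
Median log2 ratio of each gene list (rows) in the 4 comparisons (columns), with the number of measured genes in brackets. Red is higher and blue lower, KO over WT or activated over other. The fibrillar collagens read 0.68 and 2.08 in the first 2 columns and the immediate early genes -0.09 and -2.94. In the comparison of KO with WT activated FAPs, chemokines (2.53), proliferation (2.85), interferon-induced (2.03) and immediate early genes (2.00) lie highest.

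Within the barcodes that carried at least 3 Postn UMIs, several of the named genes were higher where Cthrc1 was higher, and others were not. In KO, at 0, 1, 2 to 4 and at least 5 Cthrc1 UMIs, Col1a1 was at 5206, 6051, 7095 and 9916 CPM. In WT the same steps gave 3745, 5583, 6714 and 15488 CPM. Thbs4 was at 1011, 1405, 2489 and 2951 CPM in KO and at 1149, 674, 2317 and 4589 CPM in WT. Meg3 was at 1285, 1576, 2510.1 and 2720.0 CPM in KO and at 701, 1706, 2376 and 3158 CPM in WT. In KO, Fn1 (fibronectin) was at 2476, 2532, 2341 and 2447 CPM and Lox at 154, 198, 128 and 157 CPM, with no such order. Timp1 was at 446, 588, 417 and 1974 CPM in KO, but a single barcode held 661 of the 768 UMIs of the last step. Sned1, a matrix protein that binds integrins, ran the other way in KO, at 246, 200, 103 and 38.6 CPM. The steps hold 539, 65, 29 and 15 KO barcodes and 80, 6, 11 and 13 WT barcodes, and their median depths were 15462, 16290, 21380 and 26155 UMIs in KO and 12167.5, 17571, 21021 and 23890 UMIs in WT, so depth and Cthrc1 cannot be told apart in these steps.

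Cycling cells were found among the KO activated FAPs. At least 2 UMIs of Mki67 and Top2a together, genes of dividing cells, were seen in 7 of 44 KO activated FAPs (15.9%, interval 6.64% to 30.1%) and in 17 of 1391 KO other FAPs (1.22%, 0.714% to 1.95%). In WT the numbers were 0 of 24 (up to 14.2%) and 3 of 1509. Within the deepest barcodes (defined above) they were 5 of 33 KO activated and 11 of 326 KO other FAPs. Mki67 was at 147 CPM in the KO activated and 16.2 CPM in the KO other FAPs, and at 1.81 CPM (1 UMI) in the WT activated and 0.361 CPM in the WT other FAPs. Of the 11 listed proliferation genes 6 reached the minimum in KO and 2 in WT, some of them through the activated FAPs alone. Without these 7 cells 33 genes rather than 84 were at least 2-fold higher in KO, and removing each gene's leading barcode gave 39. The leading barcode was removed from the activated FAPs alone, which tends to lower their ratios, so the count of 39 is not read as a like check. Smc4, a condensin subunit of mitotic chromosomes, had a log2 ratio of 0.07 rather than 1.83 without them. The proliferation list holds the genes that chose the 7 cells, so its level without them is not read. These 7 cells were removed from the activated FAPs alone, and the 17 cycling KO other FAPs were kept. The count of 33 and the Smc4 ratio are therefore not read as like checks either.

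Genes of other FAP states were also seen in the activated FAPs. At least 2 UMIs each of Cpxm1 and C1qtnf3, secreted proteins abundant in the KO other FAPs, were found in 21 of 44 KO activated and 108 of 1391 KO other FAPs, and in 3 of 24 WT activated and 7 of 1509 WT other FAPs. Thinned to 5000 UMIs, C1qtnf3 was seen in 31.8% of KO activated and 10.9% of KO other FAPs, and in 16.7% of WT activated and 2.15% of WT other FAPs. Cxcl9, an interferon-induced chemokine that draws T cells, was seen after thinning in 18 of 44 KO activated and 208 of 1219 KO other FAPs, and in 1 of 24 WT activated and 13 of 1210 WT other FAPs. Dpp4, the progenitor marker, was seen after thinning in 22.7% of KO activated and 23.6% of KO other FAPs, and in 12.5% of WT activated and 30.6% of WT other FAPs. In the endothelial or leukocyte barcodes without Pdgfra, not thinned, Cxcl9 was seen in 3 of 12 KO and 2 of 28 WT, C1qtnf3 in 0 of 12 KO and 0 of 28 WT, and Dpp4 in 2 of 12 KO and 2 of 28 WT barcodes (median depths 9617.5 UMIs in KO and 5610.5 UMIs in WT), so no Dpp4 state was read from these shares.

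The KO activated FAPs were then set beside the WT ones. Over 5785 genes, 441 (7.62%) were higher in KO by the 2-fold limit and 129 (2.23%) were lower. Among the other FAPs 117 of 5939 genes (1.97%) were higher and 64 (1.08%) lower, but there 20 CPM stands for 363 KO and 277 WT UMIs, so the 2 counts differ in precision. The median log2 ratio of all genes was 0.09 in activated FAPs, and scaling by TMM factors shifted every such ratio by -0.13.

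Interferon and antigen presentation genes were higher in the KO activated FAPs. Of the interferon-induced list, 14 of 15 measured genes were at least 1.5-fold higher and none lower (18.7% of all genes were higher and 7.78% lower by that size), with a median of 2.03, beside 10 of 14 higher and 1 lower with a median of 1.25 in the other FAPs (5.24% of all genes higher and 3.65% lower). Of the 15 genes 8 were under 20 CPM in the WT activated FAPs and so entered through the KO cells alone. Of the 7 at the minimum in both, 6 were higher and none lower. The summed list ran from 722 through a median of 3355 to 10389 CPM per barcode in KO and from 670 through 1697 to 3642 CPM in WT activated FAPs, so the barcodes overlapped. Iigp1, an immunity-related GTPase, had 350 UMIs in 30 of 44 KO and 5 UMIs in 5 of 24 WT activated FAPs (log2 5.28, interval 4.04 to 6.91), and in the other FAPs the ratio was 3.03. B2m, the light chain of class I molecules, was at 937 CPM in KO and 344 CPM in WT activated FAPs (1.45, 1.22 to 1.68), and in the other FAPs at 933 CPM in KO and 405 CPM in WT. Within each matrix, activated over other FAPs, the list had 3 of 17 genes higher and 3 lower in KO (median 0.14), and none of 7 higher and 3 lower in WT (median -0.52).

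Of the chemokine list 10 genes were measured, and the 5 that were at least 1.5-fold higher in KO were all under 20 CPM in the WT activated FAPs, so they entered through the KO cells and could only be higher there. Of the 5 that reached the minimum in both, none was higher or lower by that size. Cxcl9 had 1021 UMIs in 27 of 44 KO activated FAPs and 1 UMI in the WT ones, and Cxcl10, a related chemokine, 639 UMIs in 7 of 44 KO activated FAPs and none in WT, where 0 UMIs allow up to 5.43 CPM. A single KO barcode, with 39754 UMIs in all, 22 of Cthrc1 and 58 of Postn, held 65.1% of the Cxcl9, 87.5% of the Cxcl10 and 64.7% of the Timp1 UMIs of the KO activated FAPs. Without each gene's leading barcode, no WT UMI of Cxcl9 or Cxcl10 was left, and the log2 ratio of KO over WT was at least 6.03 for Cxcl9 and at least 3.89 for Cxcl10, taking 3 UMIs for the WT count of 0. With that barcode, the ratio was 9.14 (interval 6.66 to 14.4) for Cxcl9 and at least 6.88 for Cxcl10. Ccl2, which attracts monocytes, was at 413 CPM in KO and 18.1 CPM in WT activated FAPs (4.51, 3.62 to 5.58), seen in 6 of 44 KO and 1 of 24 WT activated FAPs with 59.0% of the KO UMIs in a single barcode, and in the other FAPs at 230.1 CPM in KO and 36.2 CPM in WT. Mmp3, stromelysin 1, was at 466 CPM in KO activated FAPs, seen in 36 of 44, and at 5.43 CPM (3 UMIs) in WT activated FAPs. In the other FAPs Mmp3 was at 371 CPM in KO and 64.8 CPM in WT. Plac8 had 155 UMIs in 25 of 44 KO activated FAPs and none in WT.

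Immediate early genes were at least 1.5-fold higher in KO activated FAPs in 15 of 17 measured genes and lower in 1, with a median of 2.00, whereas in the other FAPs none was higher and 12 were lower in KO, with a median of -0.80 (5.24% of all genes higher and 3.65% lower there). Of the 13 that reached the minimum in both activated sets, 11 were higher and 1 lower. Atf3, a stress-induced transcription factor, had 155 UMIs in 20 of 44 KO and 3 UMIs in 2 of 24 WT activated FAPs (log2 4.84, interval 3.26 to 7.13), and in the other FAPs it was at 138 CPM in KO and 287 CPM in WT. Btg2, an antiproliferative immediate early gene, was at 265 CPM in KO and 32.6 CPM in WT activated FAPs (3.02, 2.33 to 3.80), and in the other FAPs at 169 CPM in KO and 396 CPM in WT. Adm, the vasodilator peptide adrenomedullin, was at 153 CPM in KO and 5.43 CPM in WT activated FAPs, and in the other FAPs at 185 CPM in KO and 216 CPM in WT. Meis2, a homeobox factor outside that list, had 93 UMIs in 37 of 44 KO and 2 UMIs in 2 of 24 WT activated FAPs (4.69, 2.79 to 7.75).

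Several matrix genes named by their difference were lower in the KO activated FAPs, while the fibrillar and matricellular lists as a whole were not: 1 of 7 fibrillar collagens was lower and 2 were higher, and of the matricellular genes 3 of 17 were lower and 1 was higher. Tnc was at 102 CPM in KO and 534 CPM in WT activated FAPs (log2 -2.39, interval -2.72 to -2.06), but at 42.0 CPM in KO and 10.6 CPM in WT other FAPs. Lox was at 139 CPM in KO and 641 CPM in WT (-2.20, -2.50 to -1.91). Cilp, a matrix protein of cartilage and scarred heart, was at 1624 CPM in KO and 5655 CPM in WT (-1.80, -1.89 to -1.71), and per barcode it ran from 0.386 through a median of 13.8 to 71.0 UMIs per 10000 in KO and from 0 through 51.5 to 151 in WT. Bmp5, a bone morphogenetic ligand, was at 25.1 CPM in KO and 127 CPM in WT (-2.34, -3.06 to -1.66), seen in 16 of 44 KO and 21 of 24 WT activated FAPs. Kcnk2, a mechanically gated potassium channel, had 20 UMIs in 7 of 44 KO and 62 UMIs in 18 of 24 WT activated FAPs. Contractile genes were lower by at least 1.5-fold in 6 of 14 measured members and higher in none. By that size 7.78% of all genes were lower and 18.7% higher. Of the 12 contractile genes that reached the minimum in both activated sets, 4 were lower and none higher. Acta2 had 8 KO and 24 WT UMIs (-2.44, -3.80 to -1.24), and it reversed to 1.45 when the barcodes were chosen after thinning.

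Bone matrix genes came from a single WT barcode with 14595 UMIs, 17 of Cthrc1 and 174 of Postn. It held all 64 Bglap2, 39 Bglap, 38 Ibsp and 31 Tnn UMIs of the WT activated FAPs, genes of osteocalcin, bone sialoprotein and tenascin-W, and 71.4% of the Alpl UMIs, the alkaline phosphatase of mineralising cells. In the KO activated FAPs none of the first 4 genes had a UMI. Bglap and Bglap2 are near-identical neighbours on chromosome 3, so their counts may be split uncertainly. Without each gene's leading barcode, the osteogenic list's median of -2.21 for KO over WT became 0.03. Bglap and Ibsp then had no UMI and were no longer measured. These medians thus cover different genes, and the change is not read as a shift of the list.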

How the data were processed

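Droplet libraries (10x Genomics chemistry) of PDGFRα-sorted hindlimb cells were deposited by the authors as raw UMI counts per gene and barcode, 1 matrix per genotype. Reads were processed with Cell Ranger 3.0.0 and Seurat on mm10, per the submitters' processing notes, and the file headers give software version 3.0.2. The matrices do not say which of the 4 labelled samples a cell came from. Sums of counts over barcodes were scaled to CPM (counts per 1000000 UMIs), and log2 ratios carry exact conditional binomial 95% intervals. The intervals were tried only on counts simulated with the counting error they assume. That trial could not show how they hold where counts clump in single barcodes. They cover counting error alone, and PCR, pooling and the spread between cells lie outside them. Genes with a mean of at least 20 CPM were described, counted at 2-fold, and in lists at 1.5-fold. Named genes were the 15 highest and 10 lowest of both matrices by the smaller ratio, 12 each way between genotypes (at least 30 UMIs), 6 each way by the difference of ratios, up to 4 members of each list past 1.5-fold in both matrices, and the label-check markers. B2m, Ccl2, Cd55, C1qtnf3, Cpxm1, Ctgf, Ctsk, Cyr61, Dpp4, Egr1, Fn1, Fos, Igf2, Jun, Sfrp2, Sparc, Tagln, Tgfb1 and Tgfb3 fall outside this rule and were chosen after their values were seen. Members and lists were chosen with earlier results of these data known. Alternatives were other limits and filters, thinning to 5000 UMIs, depth-matched other FAPs, per-barcode means, Scrublet (scanpy 1.11.5), edgeR 4.0.16 TMM factors and single-barcode removal. Python 3.11.15, numpy 2.4.6, pandas 2.3.3, scipy 1.17.1 and R 4.3.3 were used.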

Additional observations from a re-analysis of the deposited data

Results flagged for a closer look

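For 5 of the genes named by rule the activated FAPs lay on opposite sides of the other FAPs in the 2 matrices with both counting intervals off 0. Cyr61, named after its values were seen, also met this, with a difference of 2.19. In no case was the difference between the matrices tested. Only the named genes were searched, and some of them were named by this same difference of ratios. Their number is therefore not read as a result, and the share over all genes was not counted. Mmp3 and Cxcl1 met the CPM minimum in WT through the other FAPs alone and could only be lower there. Mmp3 had a log2 ratio of 0.33 in KO and -3.58 in WT (3 UMIs in the WT activated FAPs, interval -5.86 to -2.02), a difference of 3.91. Peg10, an imprinted retrotransposon-derived gene, had 1.74 in KO and -2.88 in WT (1 UMI in the WT activated FAPs, interval -8.19 to -0.39), a difference of 4.62. Cxcl1, a neutrophil chemokine, had 0.86 in KO and -4.83 in WT (3 UMIs in 1 barcode in the WT activated FAPs, interval -7.11 to -3.28), a difference of 5.69. Btg2 had 0.65 in KO and -3.60 in WT, a difference of 4.25. Bmp5 lay the other way, with -1.53 in KO and 0.62 in WT, a difference of -2.15.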

How the results depend on the processing

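No paired analysis was possible because each matrix pools its samples, and for the same reason no replicate could be left out. Removing each gene's leading barcode, requiring 5 Cthrc1 UMIs and removing cycling cells were chosen after seeing the data. The leading barcode was removed from the activated FAPs alone and not from the other FAPs. For activated over other FAPs this tends to give fewer higher and more lower genes by its design. Cycling cells were likewise removed from the activated FAPs alone. The cause of the shifts below was not tested. The KO share was 1.95% under the stricter limits, 8.50% under the looser ones, 1.05% with 5 Cthrc1 UMIs (0.848% in WT) and 0.871% after thinning, and KO minus WT was 6.54, 0.20 and -0.34 points under the last 3. Thinned counts rest on 11 KO and 15 WT barcodes. In KO, 84 genes higher in activated FAPs became 28 (looser), 212 (5 Cthrc1 UMIs), 951 (thinned), 33 (50 CPM), 1250 (no minimum), 39 (no leading barcode) and 33 (no cycling cells). The 58 lower became 119 (stricter), 25 (looser), 240 (5 Cthrc1 UMIs), 665 (thinned), 106 (depth-matched), 26 (50 CPM), 708 (no minimum) and 113 (no leading barcode). In WT, 256 higher became 755 (thinned), 134 (50 CPM), 1219 (no minimum) and 162 (no leading barcode), and 430 lower became 977, 203 and 1425 under the first 3. For KO over WT activated FAPs, 441 higher became 274 (looser), 695 (5 Cthrc1 UMIs), 1248 (thinned), 160 (50 CPM) and 1510 (no minimum), and 129 lower became 220 (stricter), 306 (5 Cthrc1 UMIs), 801 (thinned), 51 (50 CPM) and 716 (no minimum). Among other FAPs, 117 higher became 343 (depth-matched), 60 (50 CPM) and 1212 (no minimum), and 64 lower became 230, 41 and 1045. TMM, 0 Tnmd UMIs, Scrublet, the barcode filters and per-barcode means left all 8 counts within 1.5 times. Reversals are listed here only for genes at least 2-fold and list medians at least 1.5-fold away as first described. Smaller ratios that changed sign, such as those of Mdk and Dkk2 in KO and Sfrp1 in WT, are given above. Directions reversed for activated over other FAPs in KO for proliferation (-0.22, no cycling cells), chemokines (-0.22, no leading barcode), Tnc (-0.20, depth-matched), Ncam1 (-0.40 thinned, -0.20 no cycling cells), Nov (0.11, depth-matched) and Comp (1.47 thinned, 0.066 depth-matched). In WT they reversed for the BMP list (0.15, 50 CPM), Ncam1 (-0.10) and Clu (0.22), both depth-matched. For KO over WT activated FAPs they reversed for the osteogenic list (0.028, no leading barcode), proliferation (-0.14, no cycling cells), Acta2 (1.45, thinned) and Cxcl1 (-0.64, looser). List medians were taken over the members still measured in each setting, so they can cover different genes, as for the osteogenic list.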

Other observations

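The 4 barcodes that met the Cthrc1 and Postn limits but had more than 1 Tnmd UMI differed among themselves. The KO barcodes held 89 and 30 Cthrc1, 211 and 137 Postn, and 227 and 290 Thbs4 UMIs, with 8 and 9 UMIs of Scx, a tendon transcription factor. The WT barcodes held 2 and 16 Cthrc1, 127 and 119 Postn, and 104 and 270 Thbs4 UMIs, with 2 and 38 of Tnmd and none of Scx.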
